A study of Mus musculus with 9 samples.

Results

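Extracellular nucleotides act on leukocytes through a small set of receptors and are removed by enzymes on the cell surface. Of these, 10 genes were followed here: the ATP-gated channel genes P2rx4 and P2rx7, the G protein-coupled receptor genes P2ry2, P2ry6, P2ry10, P2ry12, P2ry13 and P2ry14, and the ectonucleotidase genes Entpd1 (CD39) and Nt5e (CD73). They were chosen by gene symbol, as every probe set whose platform symbol is one of these 10 names, among 18193 genes that the platform names alone. The 10 genes had 19 probe sets. Where a gene had several, its brightest one by the mean of the 9 arrays stands for it, and 6 genes had only 1. All 10 reached the filter on dim genes, a mean log2 value of 2.66, so all were among the 13078 genes tested.

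ATP that leaves stressed or dying cells opens P2X channels, and P2X7 in particular lets potassium out of macrophages, which engages the NLRP3 inflammasome. P2Y receptors sense ATP, UTP, UDP, ADP or UDP-sugars and steer migration, phagocytosis and cytokine release. Entpd1 converts ATP and ADP to AMP and Nt5e converts AMP to adenosine, a signal that restrains inflammation. In the spleen, myeloid cells, lymphocytes and platelets each carry a different selection of these genes.

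The threat group consisted of 6 C57BL/6 mice subjected repeatedly to social threat, with 1 array per animal. The control group consisted of 6 C57BL/6 mice kept under non-threatening conditions, hybridised as 3 pools of 2 animals (pools 1-2, 3-4 and 5-6). CD11b+ cells had been taken from adherent splenocytes by magnetic selection. Expression was measured on Affymetrix MOE430 arrays, whose small number limits the precision of every value below. The question was whether expression in CD11b+ splenocytes differs between threat and control animals. No source used here states the age of the animals.

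The arrays were alike in distribution, with medians from 3.19 to 3.22 on the log2 scale. Itgam, which encodes the sort antigen CD11b, averaged 8.50 ± 0.070 in threat animals (SD, n = 6) and 7.93 ± 0.0255 in control pools (SD, n = 3). The sort antigen was thus well above the filter in both groups, and it was higher in threat animals by 0.57 (SE 0.0515, limma adjusted p = 1.67e-06). Markers of B cells and natural killer cells also passed the filter. The beta-actin difference between 3' and 5' probe sets, a sign of RNA integrity, ran from 0.333 to 0.423 in threat animals and from 0.405 to 0.529 in control pools (exact permutation p = 0.0238, two-sided). The same measure for Gapdh differed by -0.036 (exact permutation p = 0.512). The part of RNA integrity in the results below was not tested.

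Among the 10 genes, the ADP receptor genes P2ry12 and P2ry13 rose in threat animals, each by a little over 2-fold. P2ry10, a receptor of lymphoid cells, fell 5.04-fold, and the ectonucleotidase Entpd1 fell 1.46-fold. P2ry14 and P2ry2 fell by smaller amounts. P2rx4, P2rx7, P2ry6 and Nt5e did not pass the test. Thus 2 of 10 rose and 4 fell at a Benjamini-Hochberg adjusted p under 0.05 in limma, against a background of 45.8% of all genes called in either direction, 23.8% higher and 22.0% lower in threat animals. The 6 called genes are 6 of 10, and with so few genes such a share is not far from the background. Differences of at least 2-fold were found in 3 of the 10, against 3.96% of all genes tested (1.74% higher and 2.23% lower). The median absolute difference was 0.36 over the 10 genes and 0.15 over all genes tested. In 7 of 10 genes the threat and control values did not overlap, 3 with threat animals above and 4 with them below, as in 41.8% of all genes (21.5% above and 20.3% below).

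**Figure D1:**
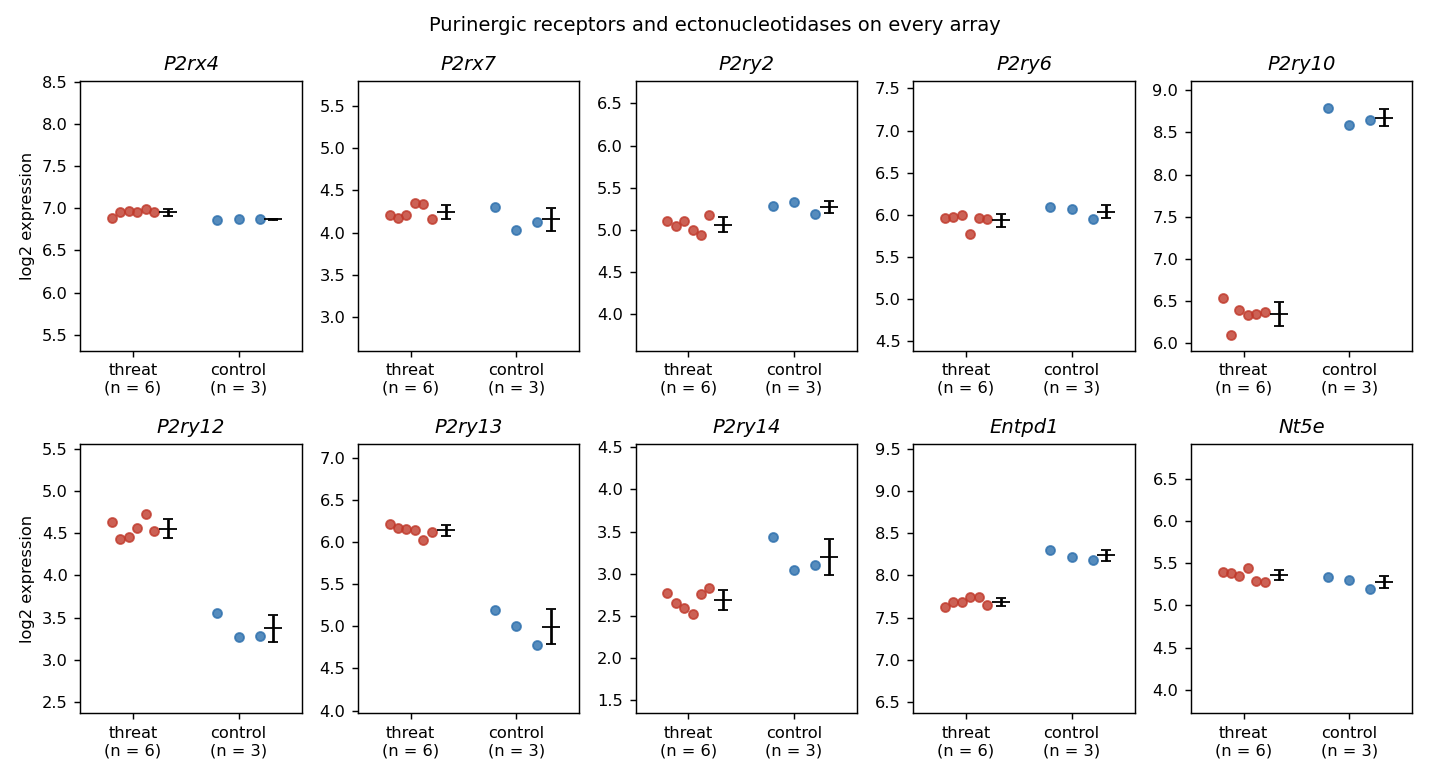
Log2 expression of the 10 genes on every array, with threat animals in red on the left and control pools in blue on the right of each panel, black bars for mean and SD, and the same log2 span in every panel. P2ry12 and P2ry13 lie higher and P2ry10 and Entpd1 lower in all 6 threat animals than in all 3 control pools.

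P2ry12, P2ry13 and P2ry14 lie close together on mouse chromosome 3 and did not move alike, so their start regions are shown first, with that of P2ry10 on chromosome X, the gene with the largest difference. Windows run from 250 bases before to 50 bases after an annotated start, were taken from RefSeq with build GRCm38.p6, and are printed 5′ to 3′ on the strand of the gene. Capitals mark GAGGAA on either strand (TTCCTC on the reverse), the purine-rich core to which the myeloid and B cell factor PU.1 is known to bind. For P2ry13 the window is chr3:59210833-59211132 on the minus strand, for P2ry12 chr3:59262936-59263235 on the minus strand, for P2ry14 chr3:59153443-59153742 on the minus strand (the outermost of 4 annotated starts), and for P2ry10 chrX:107089083-107089382 on the plus strand (the inner of 2 starts).
P2ry13: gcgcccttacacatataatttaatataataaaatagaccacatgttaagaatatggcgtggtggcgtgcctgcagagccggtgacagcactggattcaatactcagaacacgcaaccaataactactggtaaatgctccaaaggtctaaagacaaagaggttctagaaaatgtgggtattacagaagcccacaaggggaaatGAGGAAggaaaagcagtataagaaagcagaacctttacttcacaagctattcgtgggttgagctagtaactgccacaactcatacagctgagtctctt
P2ry12: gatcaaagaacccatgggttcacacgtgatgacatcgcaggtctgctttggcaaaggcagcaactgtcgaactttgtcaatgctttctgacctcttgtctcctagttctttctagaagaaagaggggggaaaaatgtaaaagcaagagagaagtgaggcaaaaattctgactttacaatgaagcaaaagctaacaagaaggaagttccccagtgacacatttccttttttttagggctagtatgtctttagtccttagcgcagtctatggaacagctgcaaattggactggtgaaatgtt
P2ry14: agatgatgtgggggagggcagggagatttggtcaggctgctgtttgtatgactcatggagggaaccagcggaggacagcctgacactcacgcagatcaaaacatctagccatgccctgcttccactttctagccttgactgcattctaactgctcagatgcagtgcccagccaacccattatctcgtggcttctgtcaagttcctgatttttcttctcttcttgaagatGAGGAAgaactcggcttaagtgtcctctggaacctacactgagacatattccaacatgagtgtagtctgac
P2ry10: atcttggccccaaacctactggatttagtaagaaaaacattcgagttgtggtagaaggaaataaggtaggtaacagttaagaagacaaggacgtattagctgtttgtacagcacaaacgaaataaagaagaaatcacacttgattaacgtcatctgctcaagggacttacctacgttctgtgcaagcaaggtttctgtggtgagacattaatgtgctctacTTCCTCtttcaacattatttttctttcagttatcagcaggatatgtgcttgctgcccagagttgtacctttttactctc

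GAGGAA occurred once in the P2ry13 window, at position -48 from the start, and once in the P2ry14 window, at -21. It occurred once in the inner P2ry10 window, the one printed, at -29 on the reverse strand. It did not occur in the P2ry12 window or the outer P2ry10 window. Of 32851 windows of this length in the table, 28.3% held at least 1 match. Windows were available for 9 of the 10 genes, 16 in all, and 9 of these 16 held the motif. Windows of 1 gene are not independent: 4 of the 9 belong to P2ry14, of which 2 overlap and hold the same match. By gene, 5 of 9 had the motif in at least 1 window. A gene with several windows has more occasions for a match, and no share by gene was computed for all genes. Of the windows at outermost starts, only those of P2rx7, P2ry13 and P2ry14 held the motif. The cAMP response half-site TGACG, searched on both strands, was in 4 of the 16 and in 20.8% of all windows. Matches of this length are descriptions of the letters and not of binding.

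The ADP receptors were the genes of the set that rose. P2ry12 encodes the Gi-coupled ADP receptor known from platelets, where it is the target of clopidogrel, and from microglia. Its values in threat animals ran from 4.43 over a median of 4.54 to 4.73, against 3.56, 3.27 and 3.29 in control pools 1-2, 3-4 and 5-6. The lowest threat animal lay above the highest control pool. The difference was 1.18 on the log2 scale (SE 0.080, limma adjusted p = 1.2e-07), a 2.27-fold rise, with a 95% interval from 1.01 to 1.36. Control levels of this probe set were less than 1 log2 unit above the filter value of 2.66, where signal and background are hard to separate, so the fold is approximate. P2ry12 lies at chr3:59216271-59262985 (GRCm38.p6) and was measured by 1 probe set.

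P2ry13 (chr3:59207892-59210882) encodes another Gi-coupled ADP receptor, found on monocytes, macrophages and other myeloid cells. In threat animals it ran from 6.03 over a median of 6.15 to 6.22, and in control pools 1-2, 3-4 and 5-6 it stood at 5.199, 5.00 and 4.78. Every threat animal again lay above every control pool, and the threat animals were closer together (SD 0.063, n = 6) than the pools (SD 0.21, n = 3). The rise was 1.14 (SE 0.077, limma adjusted p = 1.2e-07), or 2.21-fold, with a 95% interval from 0.97 to 1.31. Among all genes tested, 1.13% rose as much as P2ry12 or more, and 1.25% as much as P2ry13.

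P2ry14 (chr3:59114623-59153492), whose product senses UDP-glucose and related UDP-sugars, lies 54.4 kb from P2ry13 and went the other way. Threat animals ran from 2.52 over a median of 2.70 to 2.83, and control pools 1-2, 3-4 and 5-6 stood at 3.44, 3.05 and 3.11. The groups did not overlap, and the difference was -0.51 (SE 0.090, limma adjusted p = 4.6e-04). The mean of the threat animals, 2.69, was at the filter value, so the difference is one between weak signals. P2ry13 and P2ry12 are 5.4 kb apart.

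The large gene Med12l, which encodes a Mediator subunit, spans P2ry14, P2ry13 and P2ry12 in the annotation (build GRCm38.p6, chromosome 3, from 59005419 to 59318446). Its probe set averaged 3.91 ± 0.14 in threat animals (SD, n = 6) and 3.19 ± 0.068 in control pools (SD, n = 3), a rise of 0.72 (SE 0.076, limma adjusted p = 6.9e-06). Gpr171, a receptor gene on the far side of P2ry14 that also lies within Med12l, fell by 2.25 (SE 0.11, limma adjusted p = 5.7e-09). Within this one stretch, then, 3 tested genes rose and 2 fell. Whether transcripts of Med12l reach the probe sets of the receptors within it was not tested.

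**Figure D2:**
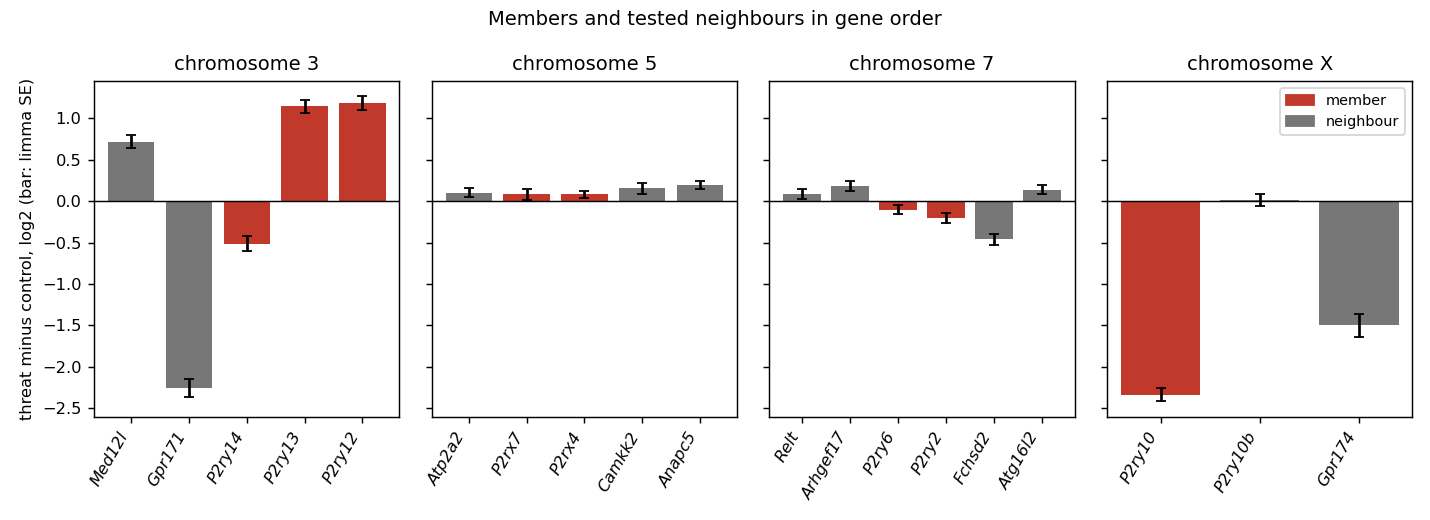
Threat minus control difference on the log2 scale for genes of the set (red) and their nearest tested neighbours (grey), in gene order along 4 chromosomes, with limma's SE as bars. On chromosome 3 P2ry13 and P2ry12 rose by 1.14 and 1.18 beside the falls of P2ry14 (-0.51) and Gpr171 (-2.25), and on chromosome X P2ry10 (-2.33) and Gpr174 (-1.497) fell while P2ry10b differed by 0.012.

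The largest difference of the set was that of P2ry10 (chrX:107088492-107104974), a receptor for lysophosphatidylserine that is known as a PU.1 and Spi-B target of lymphoid cells. Threat animals had values from 6.09 over a median of 6.35 to 6.53, and control pools 1-2, 3-4 and 5-6 had 8.79, 8.59 and 8.65. The highest threat animal stood more than 2 log2 units below the lowest control pool. The difference was -2.33 (SE 0.082, limma adjusted p = 6.5e-10), with a 95% interval from -2.51 to -2.15. Only 0.145% of all genes tested, 19 with P2ry10 itself, fell as far.

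Its close relative P2ry10b, the next gene on the chromosome, differed by 0.012 (SE 0.073, limma adjusted p = 0.912). Gpr174, the receptor gene after it and also a lysophosphatidylserine receptor of lymphocytes, fell by 1.497 (SE 0.14, limma adjusted p = 2.5e-06). Whether the P2ry10 probe set also binds P2ry10b transcripts was not tested.

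B cell markers were also lower in threat animals. Within that group P2ry10 and the mean of the B cell list did not share 1 order. Both were highest in threat animal 1 (6.53 and 5.10). P2ry10 was lowest in threat animal 2 (6.09), where the list stood at 5.06. Of 11 tested B cell markers 10 fell, at a median difference of -2.31 over the list, and their mean level ran from 4.70 to 5.10 in threat animals and from 6.74 to 6.95 in control pools. The antigen receptor chain gene Cd79a fell by 2.31 (SE 0.097) and Fcer2a, the B cell IgE receptor, fell by 1.85 (SE 0.085). Pax5 was the exception and differed by 0.0077 (limma adjusted p = 0.931). Natural killer cell markers moved too, with 8 of 9 lower and a median of -1.62. Their mean levels ran from 3.90 to 4.09 in threat animals against 5.58 to 5.72 in control pools. This mean peaked in threat animal 1 (4.087) and reached its minimum in threat animal 2 (3.896), as P2ry10 did. The order between these extremes was not shared. Threat animal 3 came next below the maximum for P2ry10 (6.39) but next above the minimum for this mean (3.901). Klrd1, an inhibitory receptor chain, fell by 1.52 (SE 0.055) and the granzyme gene Gzma by 3.11 (SE 0.13). Their part in the P2ry10 difference was not tested. In RNA of bulk cells, fewer cells of a type and less RNA per cell cannot be told apart.

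**Figure D3:**
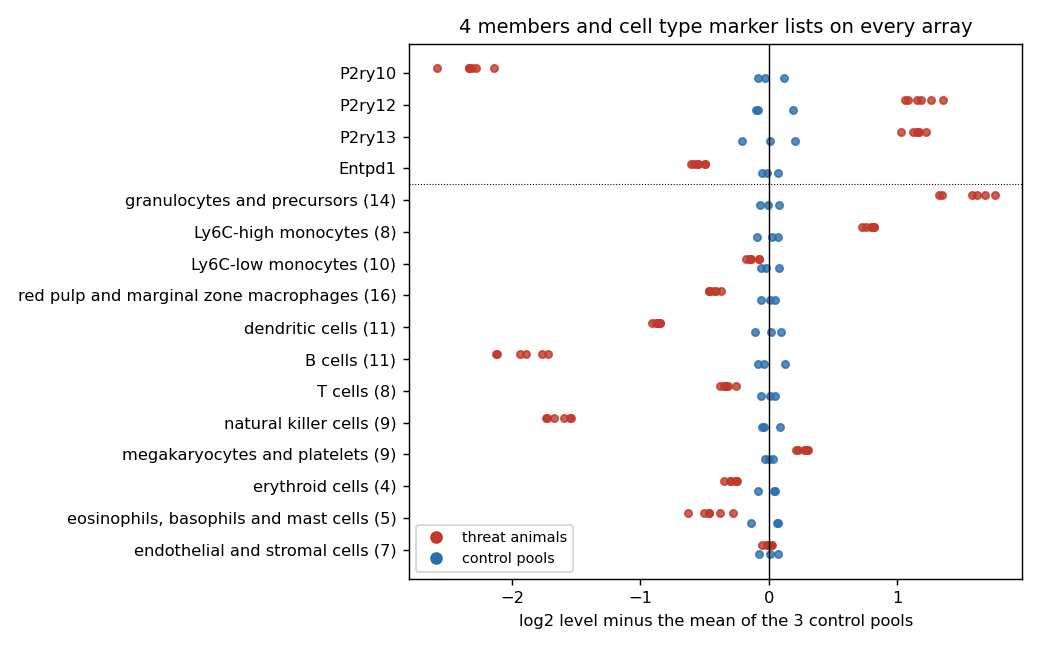
Levels on every array relative to the mean of the 3 control pools (log2), with threat animals in red above control pools in blue, for 4 genes of the set and below the dotted line for the mean of each cell type marker list (number of tested markers in brackets). P2ry10 fell by 2.33 where the B cell list differed by -1.93, and P2ry12 and P2ry13 rose where the granulocyte list is higher by 1.55 and the Ly6C-high monocyte list by 0.79.

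Beside the rises of P2ry12 and P2ry13, the myeloid marker lists went in both directions. Those of granulocytes and Ly6C-high monocytes were higher in threat animals, and those of Ly6C-low monocytes (3 of 10 rose, 6 fell, median -0.31), macrophages (2 of 16 rose, 9 fell, median -0.25) and dendritic cells (0 of 11 rose, 9 fell, median -0.69) were lower. Granulocyte and precursor markers rose in 13 of 14 cases, with a median of 1.38 and mean levels from 9.96 to 10.40 in threat animals against 8.57 to 8.72 in control pools. Mmp8, the neutrophil collagenase, rose by 2.76 and the iron-binding lipocalin Lcn2 by 1.46. Of 8 Ly6C-high monocyte markers 5 rose and 3 did not pass, at a median of 0.76, a mean level from 9.99 to 10.08 in threat animals and one from 9.17 to 9.34 in control pools. Haptoglobin (Hp) rose by 1.82 and Ifitm6 by 1.63 there.

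Platelets carry P2ry12, and the markers of megakaryocytes and platelets gave 5 rises and 1 fall among 9 tested, with a median of 0.16 and mean levels from 4.78 to 4.87 in threat animals against 4.53 to 4.60 in control pools. The platelet glycoprotein gene Gp1bb rose by 1.23 (SE 0.081) and the platelet chemokine gene Ppbp by 0.58 (SE 0.070). Itga2b, the platelet integrin, differed by 0.14 (limma adjusted p = 0.102). Neither the myeloid nor the platelet markers' part in the P2ry12 and P2ry13 rises was tested.

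The nucleotide-removing enzymes differed from each other. Entpd1 (chr19:40612366-40741602) encodes CD39, which takes ATP and ADP down to AMP. Its brightest probe set ran from 7.63 over a median of 7.68 to 7.74 in threat animals, against 8.31, 8.22 and 8.18 in control pools 1-2, 3-4 and 5-6. The groups did not overlap, and the fall was 0.55 (SE 0.048, limma adjusted p = 1.4e-06), with the difference between -0.65 and -0.44 at 95% confidence. A second probe set fell by 0.62 (SE 0.074, adjusted p = 5.8e-05 over 27022 probe sets). The remaining one, which ran from 6.47 to 7.24 in threat animals and from 7.03 to 7.30 in control pools, differed by -0.25 (SE 0.15, adjusted p = 0.217).

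Nt5e (chr9:88327609-88372089) encodes CD73, which produces adenosine from AMP. Threat animals ran from 5.28 over a median of 5.37 to 5.44, and control pools 1-2, 3-4 and 5-6 stood at 5.34, 5.30 and 5.19. The groups overlapped, and the difference of 0.083 (SE 0.054, limma adjusted p = 0.237) did not pass. Its 95% interval ran from -0.034 to 0.20, and without control pool 5-6 the difference was 0.041. The other 2 probe sets of Nt5e differed by 0.073 and 0.026, neither past the test. Beside Nt5e on chromosome 9, Snx14 rose by 0.32 (SE 0.051) and Syncrip fell by 0.36 (SE 0.058), and beside Entpd1 on chromosome 19 Aldh18a1 fell by 0.16 (SE 0.050). Tctn3, which lies 42 bases from Entpd1, differed by -0.17 (limma adjusted p = 0.137). Cep162, which lies 1072073 bases from Nt5e with the untested Tbx18 between, differed by 0.038 (limma adjusted p = 0.776).

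The marker lists of macrophages and dendritic cells, which can carry Entpd1, had lower mean levels in threat animals. Other lists went both ways: granulocytes were higher by 1.55 and Ly6C-high monocytes by 0.79, while B cells differed by -1.93. Which cells carried Entpd1 here was not tested. Macrophages of the red pulp and marginal zone had 9 falls and 2 rises among 16 markers, with a median of -0.25 and mean levels from 6.17 to 6.26 in threat animals against 6.58 to 6.69 in control pools. The prostaglandin dehydrogenase Hpgd fell by 2.31 and the phagocytic receptor Timd4 by 1.19. The 2 rises were Adgre1 (0.69, SE 0.055) and Slc40a1 (0.28, SE 0.059). Spic, Cd5l, Marco and Siglec1 were among the markers that did not pass. Of 11 dendritic cell markers 9 fell and 2 did not pass, at a median of -0.69 and mean levels from 5.33 to 5.40 in threat animals against 6.14 to 6.34 in control pools, with Ccr7 lower by 1.89 and Cd209a by 2.16. The part of these markers in the Entpd1 fall was not tested.

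The ATP-gated channels gave no call. P2rx7 (chr5:122643927-122692336) and P2rx4 (chr5:122707518-122729739) are 15.2 kb apart. P2rx7 ran from 4.17 over a median of 4.21 to 4.35 in threat animals and stood at 4.31, 4.03 and 4.13 in control pools 1-2, 3-4 and 5-6. The groups overlapped and the difference was 0.084 (SE 0.068, limma adjusted p = 0.345), with a 95% interval from -0.064 to 0.23. The value rests on single pools: it was 0.159 without control pool 1-2 and 0.021 without control pool 3-4, and did not pass either way. A second P2rx7 probe set differed by 0.083, and the last was under the filter. Of the tested neighbours on chromosome 5, Anapc5 rose by 0.195 (SE 0.048), while Camkk2 and Atp2a2 differed by 0.16 and 0.0998 and did not pass.

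P2rx4, a channel that is more sensitive to ATP and resides largely in lysosomes, gave values that depended on the probe set. Its brightest probe set ran from 6.88 over a median of 6.96 to 6.99 in threat animals and was 6.87 in all 3 control pools. These values did not overlap, yet the difference was 0.081 (SE 0.043, limma adjusted p = 0.148). The second brightest differed by 0.14 (adjusted p = 0.112). A dimmer one ran from 3.65 to 3.87 in threat animals and from 3.94 to 4.27 in control pools, and was lower by 0.33 (adjusted p = 0.0064 over 27022 probe sets). The last was under the filter and differed by 0.074. The probe sets of P2rx4 therefore had no single direction in these arrays, and only the one lower by 0.33 went down.

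**Figure D4:**
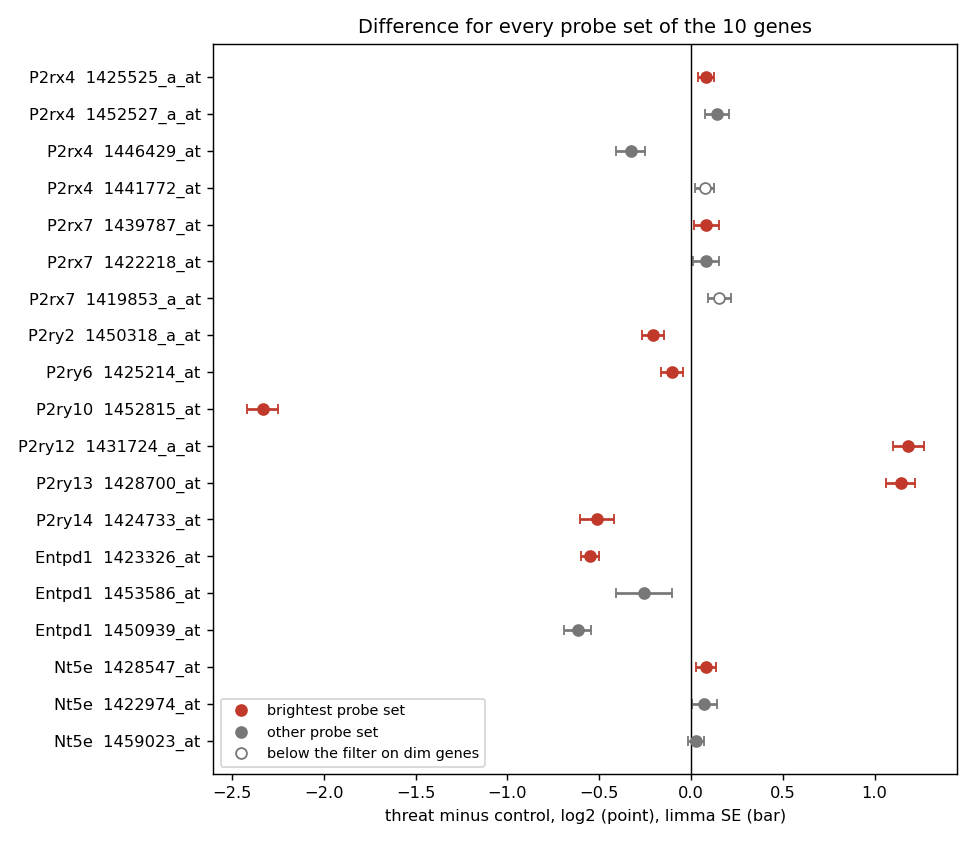
Threat minus control difference on the log2 scale for all 19 probe sets of the 10 genes, with limma's SE as bars, red for the probe sets used, grey for the others and open for those under the filter on dim genes. The Entpd1 probe sets lie between -0.62 and -0.25, and those of P2rx4 lie on both sides of 0.

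P2ry2 and P2ry6, which are 21.1 kb apart on chromosome 7, showed small differences. P2ry2 encodes the Gq-coupled receptor for ATP and UTP, which draws phagocytes towards dying cells. It ran from 4.94 over a median of 5.08 to 5.18 in threat animals and stood at 5.29, 5.33 and 5.19 in control pools 1-2, 3-4 and 5-6. The highest threat animal was just under the lowest pool, and the fall of 0.21 (SE 0.059) passed (limma adjusted p = 0.0123). Without control pool 3-4 the fall was 0.18 and the adjusted p 0.0587. P2ry6, the UDP receptor that promotes phagocytosis by microglia, ran from 5.78 over a median of 5.96 to 6.00 in threat animals, against 6.10, 6.07 and 5.95 in control pools 1-2, 3-4 and 5-6, and its difference of -0.10 (SE 0.058) did not pass (limma adjusted p = 0.177). Of the tested neighbours on chromosome 7, Arhgef17 rose by 0.18 (SE 0.062) and Fchsd2 fell by 0.46 (SE 0.064), while Relt and Atg16l2 differed by 0.087 and 0.14 and did not pass.

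Likeness to other genes was measured as Pearson's r over the 9 arrays, which share the group difference, so high values are common and no p is given. Klra8, a natural killer cell receptor gene whose close paralogs make its probe set uncertain, was most like P2ry10 (r = 0.998), followed by the actin-bundling gene Fscn1 (r = 0.997). For P2ry13 the nearest were the glutaredoxin gene Glrx (r = 0.997) and R3hdm4 (r = 0.996). Those of P2ry12 were the respiratory chain gene Ndufa9 (r = 0.995) and the chitobiase gene Ctbs (r = 0.993). For Entpd1 they were Fasl (r = 0.998), the death ligand of natural killer and T cells, and Zfp472 (r = 0.996). After the group means were removed these 8 pairs had r from 0.781 to 0.947. The pairs were picked as the highest among all genes tested on these same 9 arrays, so these values are no independent sign of likeness. For P2rx4 the nearest genes were Sike1 and Osbpl3, for P2rx7 Drd2 and Aknad1, for P2ry2 Rrp9 and Rilpl2, for P2ry6 Zxdc and Nrgn, for P2ry14 Rpl4 and Cct4, and for Nt5e Usp2 and Fgd4, with r from 0.909 to 0.985.

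Genes around the 10 were counted in 7 lists of the nucleotide and adenosine pathway. Of 66 tested genes in these lists 24 rose while 14 fell, which is 57.6% called against 45.8% of all genes, with a median difference of 0.10 against 0.029. The 24 include Gja1, which was under the filter in control pools. The other receptors were quiet. Of 7 further P2X and P2Y receptor genes tested, P2rx1, P2rx2, P2rx3, P2rx5, P2rx6, P2ry1 and P2ry4, 0 passed limma's test and 0 had an unadjusted p under 0.05. Their differences ran from -0.040 to 0.10, at a median of 0.049, and their group means from 2.71 to 4.10. Among the adenosine receptors only Adora3 was analysed here, and it differed by -0.057 (limma adjusted p = 0.446).

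Of 11 further ectonucleotidase genes 4 rose while 1 fell, at a median of 0.25. Bst1 (CD157), a GPI-anchored ecto-enzyme of the ADP-ribosyl cyclase family found on myeloid cells, averaged 8.08 ± 0.037 in threat animals (SD, n = 6) and 6.07 ± 0.037 in control pools (SD, n = 3). That was a 4.02-fold rise, and the largest difference in these 7 lists (2.01, SE 0.045, limma adjusted p = 2.2e-11). Acpp, a phosphatase that can release adenosine from AMP, rose by 0.77 (SE 0.079, limma adjusted p = 5.2e-06). Entpd3, a relative of Entpd1, rose by 0.81 (SE 0.092), opposite to Entpd1 itself.

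Adenosine handling was split, with 5 rises and 4 falls among 12 genes and a median of 0.11. The enzymes that remove adenosine rose: Ada, which deaminates it, by 1.21 (SE 0.14) and Adk, which phosphorylates it, by 0.36 (SE 0.066). The purine nucleoside phosphorylase Pnp, the brightest of the list, rose by 0.66 (SE 0.046, limma adjusted p = 1.8e-07). Of the nucleoside transporters, Slc29a1 fell by 0.33 and Slc29a3 by 0.55, and Slc29a2 differed by 0.11 without passing. Dpp4, which anchors adenosine deaminase at the surface in humans and also stood in the dendritic cell list, fell by 0.81 (SE 0.061, limma adjusted p = 3.2e-07).

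Among 7 genes of ATP and nucleotide release 3 rose while 1 fell, at a median of 0.11. The ATP-release channel gene Panx1 fell by 0.26 (SE 0.059, limma adjusted p = 0.0032). The lipid scramblase gene Xkr8, which acts in apoptotic cells, rose by 1.36 (SE 0.086). The connexin gene Gja1, counted among the 3, differed by 1.09 (SE 0.11). Its control values, 2.45 ± 0.19 (SD, n = 3), were under the filter. It was thus tested only through its threat values and is no support for a rise. Ano6, the brightest of the list, rose by 0.25 (SE 0.047). Slc17a9, Lrrc8a and Slco2a1 differed by 0.11, 0.049 and 0.099 and did not pass.

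In the list of P2X7 partners and inflammasome output 7 of 10 genes rose while 1 fell, at a median of 0.54, while P2rx7 itself was not called. Pycard, the inflammasome adaptor ASC, rose by 1.09 (SE 0.069, limma adjusted p = 6.4e-08), and the potassium channel genes Kcnk6 and Kcnk13 rose by 0.64 (SE 0.061) and 0.86 (SE 0.083). Il1b rose by 0.56 (SE 0.047). The sensor Nlrp3 and the protease Casp1 differed by 0.068 and 0.028 and did not pass, and Nek7, which NLRP3 needs, fell by 0.20 (SE 0.057, limma adjusted p = 0.011).

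In the signalling list, which covers the G proteins and effectors of P2Y receptors, 5 of 18 genes rose while 7 fell, at a median of -0.0056. On the Gi side, to which P2ry12, P2ry13 and P2ry14 belong, Gnai2 rose by 0.45 (SE 0.063) and the phosphoinositide 3-kinase gene Pik3cg by 1.198 (SE 0.055, limma adjusted p = 4.7e-09), while Gnai3 and Pik3r5 differed by 0.046 and 0.13 and did not pass. On the Gq side both directions occurred: Gnaq fell by 0.40 (SE 0.062), Gna11 fell by 0.19 (SE 0.057), the calcium release channel gene Itpr3 by 1.11 (SE 0.070) and Itpr2 by 0.54 (SE 0.073), while the phospholipase C genes Plcb3 and Plcb2 rose by 0.62 (SE 0.087) and 0.22 (SE 0.063), and Plcb4 and Gna15 did not pass. Gna13, the G protein through which P2ry10 is known to act, fell by 0.50 (SE 0.050). The regulators of G protein signalling Rgs1 and Rgs2 fell by 1.44 (SE 0.059, limma adjusted p = 1.9e-09) and 1.31 (SE 0.080), while Rgs18 rose by 0.62 (SE 0.15, limma adjusted p = 0.0042).

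**Figure D5:**
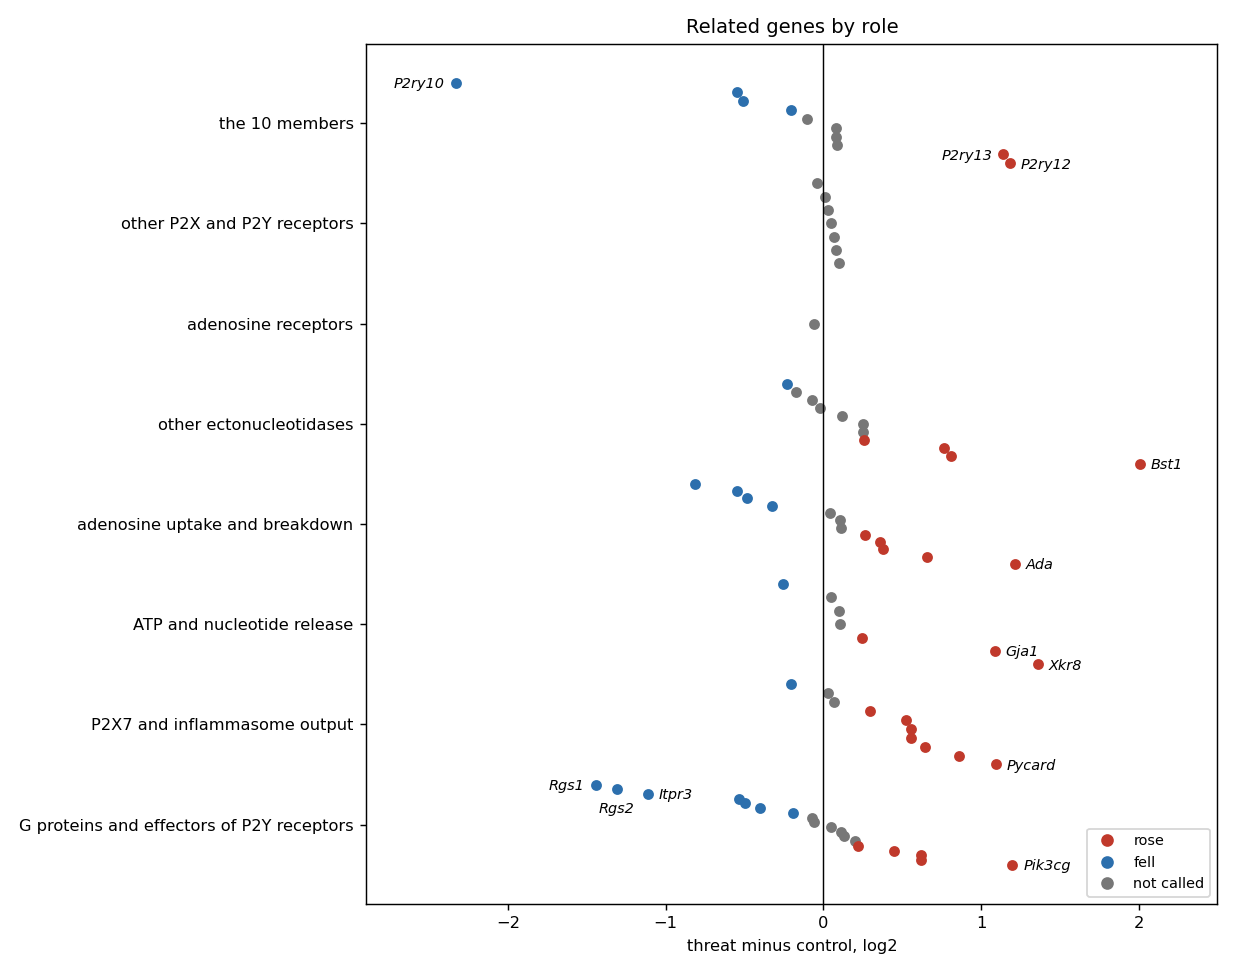
Threat minus control difference on the log2 scale for the 10 genes and for 66 related genes in 7 lists, with 1 point per gene, red for rose, blue for fell and grey for not passing limma's test, and names for differences of at least 1. The 7 further P2X and P2Y receptors all lie near 0, and Bst1, at 2.01, is the highest point.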

How the data were processed

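The authors deposited log2 values for 45101 probe sets on each array. RMA is named in the submitters' processing notes, without settings, and no source used here gives its version. The log2 base was taken from the values, 0.607 to 13.567. RMA equalises distributions between arrays, so a change in total RNA per cell is not seen, and it gives no detection call. The 10 genes and all lists were chosen with earlier results of these data known.

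Of 45037 probe sets that are not controls, 34945 named 1 gene. Symbols were updated by Entrez number to RefSeq (GRCm38.p6) for 34741. Genes whose brightest probe set reached the 40th percentile of all probe sets were tested, threat minus control, with limma 3.58.1 in R 4.3.3 (lmFit, eBayes), two-sided, with Benjamini-Hochberg adjustment over 13078 genes. SE and 95% intervals are limma's moderated ones. The procedure was tested on simulated data first. Exact permutation tests took the 84 ways to divide the arrays 6 to 3 and cannot give a p under 0.0119. Alternatives were other filters, probe set rules and scalings, limma with trend, pool weights, animals averaged in pairs, a replicate block, a 1.2-fold threshold and each array left out.

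Named were all 10 genes. From each pathway list the 2 called genes with the smallest p, the gene with the highest mean and any with a difference of at least 1 were named. From each cell type list the 2 with the smallest p were named, with Itgam, tested neighbours and the 2 most alike genes. Other names were chosen after their values were seen. Of 80 pathway genes listed, 66 were tested.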

Additional observations from a re-analysis of the deposited data

Results flagged for a closer look

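Each of the 19 probe sets was examined for a threat animal that stood apart from the other 5, by the gap to its nearest neighbour as a share of the whole range. About 1 in 20 such groups is expected to show one by chance, and 2 of 19 did. P2rx4 was lowest in threat animal 1, at 6.881, where the other 5 ran from 6.95 to 6.99. P2ry6 was lowest in threat animal 4, at 5.779, where the other 5 ran from 5.95 to 6.00. Neither gene was called with or without that animal.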

How the results depend on the processing

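The calls of P2ry10, P2ry12, P2ry13 and Entpd1 held under all 80 alternatives run for the probe sets used. Each array left out in turn gave differences from -2.38 to -2.28 for P2ry10, 1.13 to 1.28 for P2ry12, 1.04 to 1.24 for P2ry13, -0.59 to -0.39 for P2ry14 and -0.58 to -0.51 for Entpd1. For the genes not called the ranges were 0.074 to 0.095 for P2rx4, 0.021 to 0.159 for P2rx7, -0.15 to -0.071 for P2ry6 and 0.041 to 0.11 for Nt5e, with no call gained. The call of P2ry2 was lost without control pool 3-4, within a range from -0.24 to -0.18, and the fallen genes then numbered 3. P2rx4 turned to -0.0078 with the mean of its probe sets, and to -0.33 with the dimmer probe set, alone or where sets with an _s, _x or _a suffix were avoided. Its difference of 0.081 gave an exact permutation p of 0.0119, the smallest that test can give and not adjusted for the number of genes. P2rx7 passed with the mean of its probe sets (0.107, adjusted p = 0.0393), and the third Entpd1 probe set did not (-0.25). Against a change of 1.2-fold, 2 genes rose and 2 fell, P2ry10 and Entpd1. P2ry14 was not tested at the filter of the 60th percentile. Animal numbers 1-2, 3-4 and 5-6 showed no common pairing over all genes tested: same-numbered deviations correlated at 0.149, -0.152 and -0.029. These values cannot exclude pairing in single genes. With the animal numbers as a replicate block 3085 genes rose and 2860 fell, against 3119 and 2876 without, and no call of the 10 changed. The cause of these changes was not tested. No label gives a batch, so a batch effect was not tested, and levels near the filter have no certain fold.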

Other observations

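Counts for the cell type lists whose genes were not named above follow. Over all genes tested, 45.8% were called, 23.8% higher and 22.0% lower in threat animals. Shares near these values are no result about a list. Of 10 Ly6C-low monocyte markers 3 rose and 6 fell, with a median of -0.31. The peptidoglycan-binding gene Pglyrp1 was higher by 1.84 and Cd36, a scavenger receptor, was lower by 1.68. Of 8 tested T cell markers 4 fell while 4 did not pass, at a median of -0.23. Cd5 fell by 0.96 and Cd3d, a chain of the T cell receptor complex, by 0.87, and Cd3g and Cd28 were under the filter.

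The remaining lists were mostly dim. Among 5 tested markers of eosinophils, basophils and mast cells 3 fell, Ccr3 among them, with a median of -0.17, and Siglecf was lower by 0.74. Ccr3 averaged 2.27 ± 0.088 in threat animals (SD, n = 6), under the filter, and 3.44 ± 0.45 in control pools (SD, n = 3), so it was tested only through its control values and is no support for a fall. Another 5 of that list were under the filter. Of 4 erythroid markers 1 rose and 1 fell, with a median of -0.042, the transferrin receptor Tfrc lower by 1.23 and Klf1 higher by 0.18. Of 7 endothelial and stromal markers 2 rose and 1 fell, with a median of 0.075, Pecam1 lower by 0.75 and Pdgfrb higher by 0.24. The mean level of that list overlapped between the groups, from 3.61 to 3.68 in threat animals and from 3.58 to 3.73 in control pools.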
